A study of Mus musculus with 2 samples.

Results

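The interleukin-1 genes followed here are 9: the ligands Il1a, Il1b, Il18 and Il33, the receptor antagonist Il1rn, and the receptor chains Il1r1, Il1r2, Il1rl1 and Il1rap. They are 9 of the 15877 protein-coding genes with a promoter region in these data. The set was chosen from measured values, because Il1a was the promoter that rose most in epithelial cells of the same 2 libraries, and its relatives were added as a family. The rank of Il1a and its change in epithelial cells are therefore given as a description. Around the 9 genes, every region within 500 bp of a transcription start site, inside the gene body or up to 20 kb from it was taken, which gave 215 of 369634 regions in all. Of these, 126 held a peak from each library (shared regions, 214119 in all) and so had a value in both.

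The assay was scATAC-seq, in which Tn5 transposase cuts open chromatin of single cells, on back skin of E16.5 mouse embryos. There was 1 library from Control skin and 1 from MOF cKO skin (MOFfl/fl/K14Cre), in which Cre under the keratin 14 promoter acts in epithelial cells on the floxed alleles of MOF (Kat8), a histone acetyltransferase. The cells of both libraries carried the K14-H2BGFP reporter. GFP-positive and GFP-negative cells were sorted and pooled again, by the labels at 5 to 1, though the study's text gives other proportions, so the share of each class is not a result. The study describes the assay as done on a single pair of samples and its controls in general as wild-type or heterozygous littermates, without saying which of these the Control library was or how many embryos it held. Because this Cre acts in keratin 14-expressing cells, fibroblasts and immune cells of the MOF cKO library were not targeted by it.

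The interleukin-1 family carries alarm signals of barrier tissues. Il1a and Il33 are stored in epithelial cells and can act when released from damaged cells, whereas Il1b and Il18 are cut to their active form by caspase-1. Il1a and Il1b signal through Il1r1 paired with the shared chain Il1rap, and Il33 signals through Il1rl1 (ST2) paired with the same chain. Il1rn occupies Il1r1 without signalling and Il1r2 is a decoy receptor.

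The sequences below are printed because the Il1a and Il1rn promoters were the member promoters with the largest changes in epithelial-like cells, and Il1b is shown beside them as the neighbour of Il1a on chromosome 2. Each is the run of 250 bases before the start site in RefSeq (GRCm38.p6), 5′ to 3′ on the strand of the gene. Capitals mark matches to AP-1 (TGACTCA or TGAGTCA), C/EBP (TTGCNNAA or TTNNGCAA), NF-kB (by name) or a TATA box (TATAAA or TTTATA), both strands searched.
Il1a promoter, chr2:129309973-129310222, minus strand: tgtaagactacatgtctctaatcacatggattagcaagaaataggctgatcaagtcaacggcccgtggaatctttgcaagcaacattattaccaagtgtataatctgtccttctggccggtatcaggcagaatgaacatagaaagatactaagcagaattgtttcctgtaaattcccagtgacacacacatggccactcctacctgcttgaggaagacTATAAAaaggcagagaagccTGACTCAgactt
Il1b promoter, chr2:129371140-129371389, minus strand: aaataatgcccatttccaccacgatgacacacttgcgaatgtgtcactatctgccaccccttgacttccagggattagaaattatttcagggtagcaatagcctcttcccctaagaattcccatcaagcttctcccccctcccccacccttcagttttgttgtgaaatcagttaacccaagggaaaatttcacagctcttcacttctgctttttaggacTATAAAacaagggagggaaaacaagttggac
Il1rn promoter, chr2:24336610-24336859, plus strand: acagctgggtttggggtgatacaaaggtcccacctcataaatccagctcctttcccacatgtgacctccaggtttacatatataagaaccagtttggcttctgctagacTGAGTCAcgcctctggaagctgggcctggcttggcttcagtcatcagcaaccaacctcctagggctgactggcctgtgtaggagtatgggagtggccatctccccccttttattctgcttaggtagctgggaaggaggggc
The Il1a window held 1 AP-1 match, which begins 12 bases before the start, and 1 TATA box, the Il1b window held 1 TATA box and no AP-1 match, and the Il1rn window held 1 AP-1 match that begins 141 bases before the start. The windows of Il1rl1, the other member promoter past 2-fold in epithelial-like cells, held 0 AP-1 matches. Among the 32851 promoter entries of the table, 4.46% held an AP-1 match in these 250 bases, 9.56% a C/EBP match, 3.9% an NF-kB match and 12.4% a TATA box. A match is a string of letters and not a measured binding site.

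The sequences that follow are the central 300 bases, plus strand, of the member regions outside promoters that rose most in epithelial-like cells among the 105 with at least 100 sites. Capitals mark AP-1 matches, and no C/EBP or NF-kB match was found in them.
Il1rap intron, chr16:26626120-26626419: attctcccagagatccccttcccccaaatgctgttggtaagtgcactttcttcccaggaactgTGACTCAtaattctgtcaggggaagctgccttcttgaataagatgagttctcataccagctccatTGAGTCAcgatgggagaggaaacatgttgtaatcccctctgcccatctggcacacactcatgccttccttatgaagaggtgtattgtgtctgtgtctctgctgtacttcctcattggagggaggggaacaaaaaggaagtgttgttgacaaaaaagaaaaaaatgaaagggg
Il1a upstream, chr2:129320167-129320466: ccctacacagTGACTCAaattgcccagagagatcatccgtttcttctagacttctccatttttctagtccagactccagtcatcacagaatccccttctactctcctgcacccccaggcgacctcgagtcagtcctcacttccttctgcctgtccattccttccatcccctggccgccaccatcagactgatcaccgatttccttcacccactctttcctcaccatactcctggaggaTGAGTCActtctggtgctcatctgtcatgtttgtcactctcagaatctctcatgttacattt
Il33 upstream, chr19:29917477-29917776: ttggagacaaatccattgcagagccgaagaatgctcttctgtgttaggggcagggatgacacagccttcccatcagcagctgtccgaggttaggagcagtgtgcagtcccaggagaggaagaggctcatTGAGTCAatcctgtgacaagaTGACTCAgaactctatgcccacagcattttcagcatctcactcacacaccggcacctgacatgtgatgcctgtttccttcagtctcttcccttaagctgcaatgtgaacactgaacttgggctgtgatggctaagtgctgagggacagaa
Each of these 3 windows held 2 AP-1 matches. Among all 195144 shared regions outside promoters, 17% held at least 1 AP-1 match in the central 300 bases. Of the member regions outside promoters, 17 of the 37 that were at least 2-fold higher in epithelial-like cells of MOF cKO held one (45.9%), and 14 of the other 69 did (20.3%). In fibroblast-like cells the same count was 10 of 36 (27.8%) against 19 of 58 (32.8%). In epithelial-like cells the shares for the other motifs were 21.6% against 20.3% for C/EBP (14.6% of all regions), 5.41% against 2.9% for NF-kB (4.51%) and 21.6% against 13% for the TATA box (16.2%). Motif shares among all regions outside promoters that were at least 2-fold higher were not computed, so no share is called particular to the member regions.

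The deposited matrices held 169641002 cut sites in 2541 barcodes for Control and 324310197 in 4348 for MOF cKO, with a median of 62973 and 66239.5 sites per barcode, and 21 barcode sequences occurred in both. Cells were clustered and named from marker genes, with the ending "like" because only promoter accessibility was seen. The epithelial-like class held 1397 Control and 2639 MOF cKO cells, the fibroblast-like class 659 and 1252, and the immune-like class 46 and 281. Endothelial-like cells (9 and 26), muscle-like cells (23 and 21) and mural-like cells (18 and 69) were few. A shallow cluster of 299 Control and 5 MOF cKO cells stayed unnamed, although 9 of 10 epithelial markers stood at least 2-fold above other cells in it. A cluster of 30 and 55 cells led by Gjc3 and Car6 stayed unnamed too. The 10 epithelial markers summed to 319 and 290 CPM in epithelial-like cells and to 37.5 and 39.0 in fibroblast-like cells, where CPM is sites scaled to 1e+06 sites in shared regions of the class. Single markers within these sums moved apart. In epithelial-like cells Krt14 went from 37.7 to 73.2 CPM, Krt5 from 28.8 to 14.8 and Trp63 from 26.3 to 12.5, and in fibroblast-like cells Krt14 went from 0.883 to 3.77 CPM, Esrp1 from 2.50 to 4.51 and Trp63 from 5.93 to 3.06. The part of epithelial signal in the fibroblast-like values below was not tested. In epithelial-like cells the promoter of the targeted gene Kat8 held 48.8 CPM in Control and 36.7 in MOF cKO, a fall of the size of the typical promoter, which does not check the deletion. Clusters of epithelial-like cells belonged almost wholly to 1 library, so library and genotype cannot be told apart, and with 1 library per genotype no test between genotypes was possible. All intervals are exact 95% intervals for counting error only.

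Across all 15877 promoters the median change in epithelial-like cells was -0.42, as log2(MOF cKO / Control) of CPM, and 85.8% were lower. In fibroblast-like cells it was -0.03. The change of each member is read beside this median. Of the 9 member promoters in epithelial-like cells, 3 (Il1a, Il1rn and Il1rl1) were at least 2-fold higher and 0 were at most 1/2, and Il1rl1 fell below 2-fold when scaled to all own peaks (0.92) or per cell (0.98). Of all promoters, 2.23% were at least 2-fold higher and 2.48% at most 1/2. Because the set was chosen on this contrast, nothing is read from that count. In fibroblast-like cells, 1 member promoter (Il1rl1) was at least 2-fold higher and 0 were at most 1/2, beside 1.88% and 0.819% of all promoters.

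**Figure D1:**
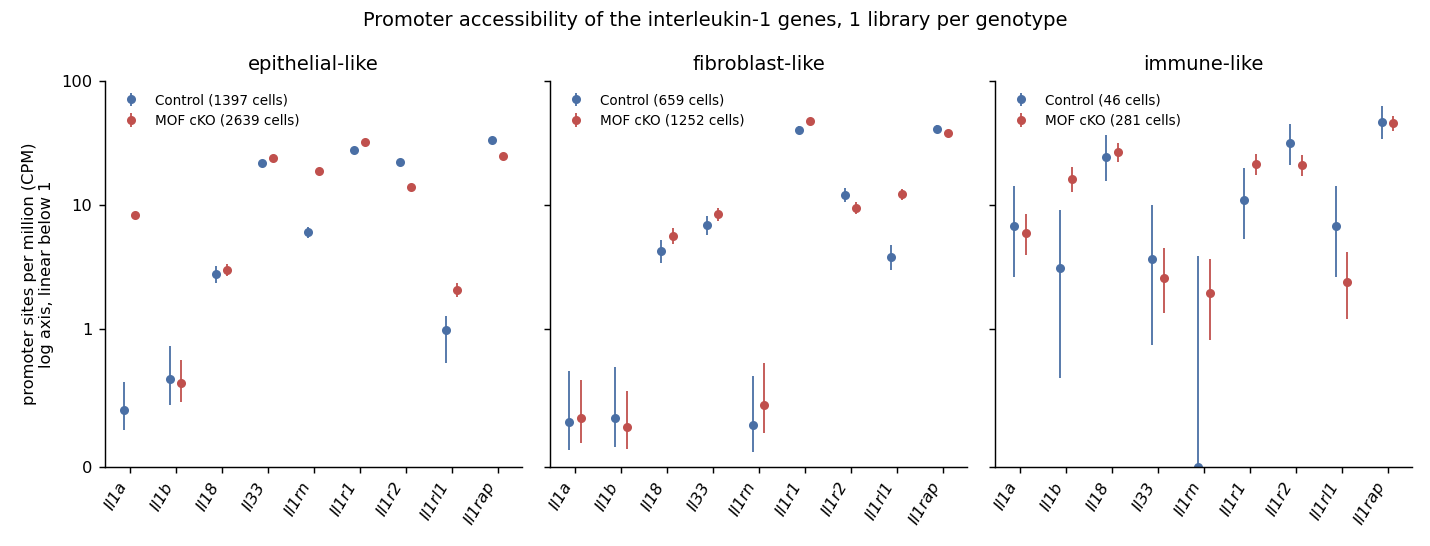
Promoter accessibility of the 9 genes in epithelial-like, fibroblast-like and immune-like cells, in CPM on an axis that is logarithmic above 1 and linear below, with points for Control (blue) and MOF cKO (red) and bars for the exact 95% counting interval. In epithelial-like cells Il1a moved from 0.414 to 8.30 CPM and Il1rn from 6.03 to 18.9, while in fibroblast-like cells Il1rl1 moved from 3.84 to 12.2.

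Il1a, the interleukin-1α gene (ENSMUSG00000027399.1, chr2:129299610-129309972, minus strand), has 1 coding start site, covered by the shared region chr2:129309553-129310499. In epithelial-like cells this promoter held 48 sites in Control, 0.414 CPM (interval 0.27 to 0.62), and 1717 sites in MOF cKO, 8.30 CPM (7.75 to 8.87). The change was 4.33 on the log2 scale (3.74 to 4.98), 20.05-fold, and this value chose the set, so it is given as a description. In fibroblast-like cells it stayed at the Control epithelial level, with 0.33 CPM in Control and 0.35 in MOF cKO. Immune-like cells held 6.80 CPM (2.62 to 14.4) in Control and 5.91 (3.94 to 8.51) in MOF cKO, so their interval in MOF cKO overlaps that of MOF cKO epithelial-like cells. Endothelial-like cells, with 9 and 26 cells, held 8 sites, 9.66 CPM (2.63 to 24.7), in Control and 12 sites, 8.07 CPM (2.96 to 17.6), in MOF cKO. Mural-like cells held 0 sites in both libraries.

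The same sites can be counted by cell. At least 1 site at the Il1a promoter was found in 19 of 1397 Control epithelial-like cells (1.36%) and in 669 of 2639 MOF cKO ones (25.4%). The median depth was 74760 and 84584 sites per cell. After each cell was thinned to 5000 sites, which left out 14 Control and 39 MOF cKO cells, the counts were 0 of 1383, which allows a share of up to 0.217% by the limit of 3 counts (exact upper bound 0.266%), and 108 of 2600 (4.15%, interval 3.42 to 4.99). In fibroblast-like cells, 7 of 659 and 8 of 1252 cells had a site. All 5 epithelial-like clusters made up mostly of MOF cKO cells were above the 3 made up mostly of Control cells, with 3.70 to 11.5 CPM against 0.362 to 0.504. Among the larger MOF cKO clusters, cluster 2 (727 MOF cKO cells) held 11.5 CPM, cluster 0 (1151 cells) 8.89 and cluster 3 (572 cells) 3.70, and the intervals of these 3 do not overlap. These clusters were formed from the same regions, so their order is a description.

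**Figure D2:**
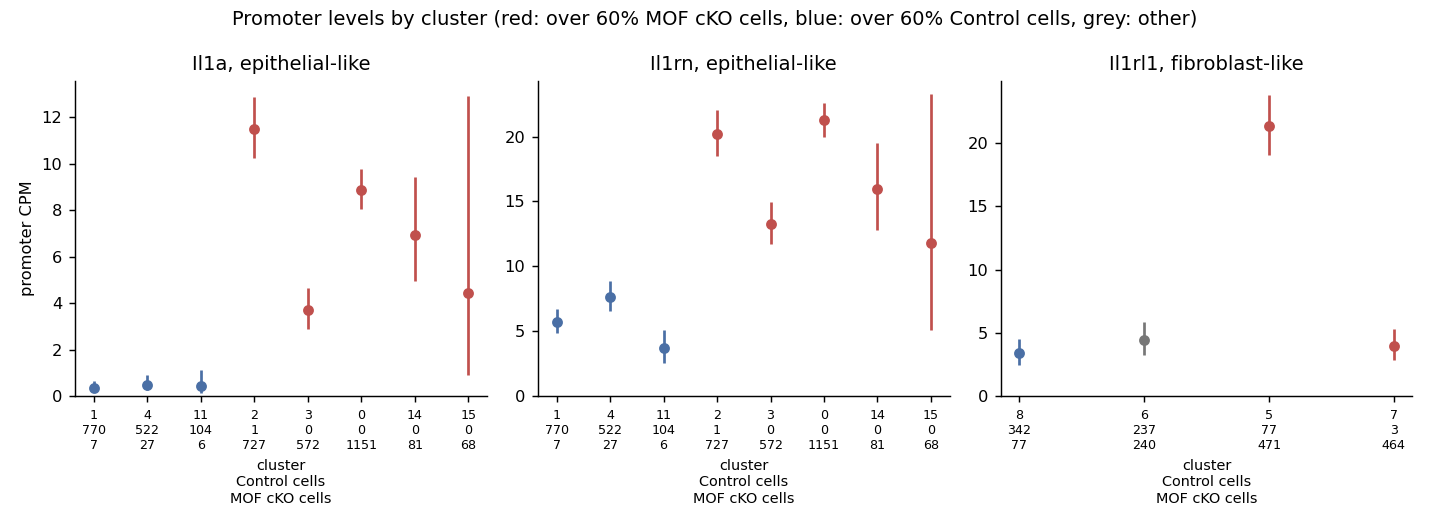
Promoter CPM of Il1a and Il1rn in the epithelial-like clusters and of Il1rl1 in the fibroblast-like clusters, with exact 95% counting intervals and the number of Control and MOF cKO cells under each cluster number. Il1a lay between 3.70 and 11.5 CPM where MOF cKO cells made up most of the cluster and below 1 CPM where Control cells did, and Il1rl1 was highest in fibroblast-like cluster 5.

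Upstream of Il1a, the 3 nearest shared regions were higher in epithelial-like cells of MOF cKO. At chr2:129319848-129320787, centred 10.3 kb upstream, the level was 0.379 CPM in Control and 7.18 in MOF cKO (4.24, interval 3.63 to 4.93; 3.11 with cells thinned to 5000 sites). The region 7.9 kb upstream went from 2.22 to 10.98 CPM (2.31) and the one 6.3 kb upstream from 1.83 to 4.22 CPM (1.21). The region 14.5 kb upstream was lower, with 4.06 and 3.02 CPM, as was that over the promoter of the neighbouring gene Ckap2l downstream of Il1a, with 49.8 and 34.8 CPM (-0.52). In immune-like cells the region at 10.3 kb held 40.3 CPM in Control and 40.5 in MOF cKO, above its level in epithelial-like cells of either library. In fibroblast-like cells none of the 4 upstream regions passed 1 CPM in either library.

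**Figure D3:**
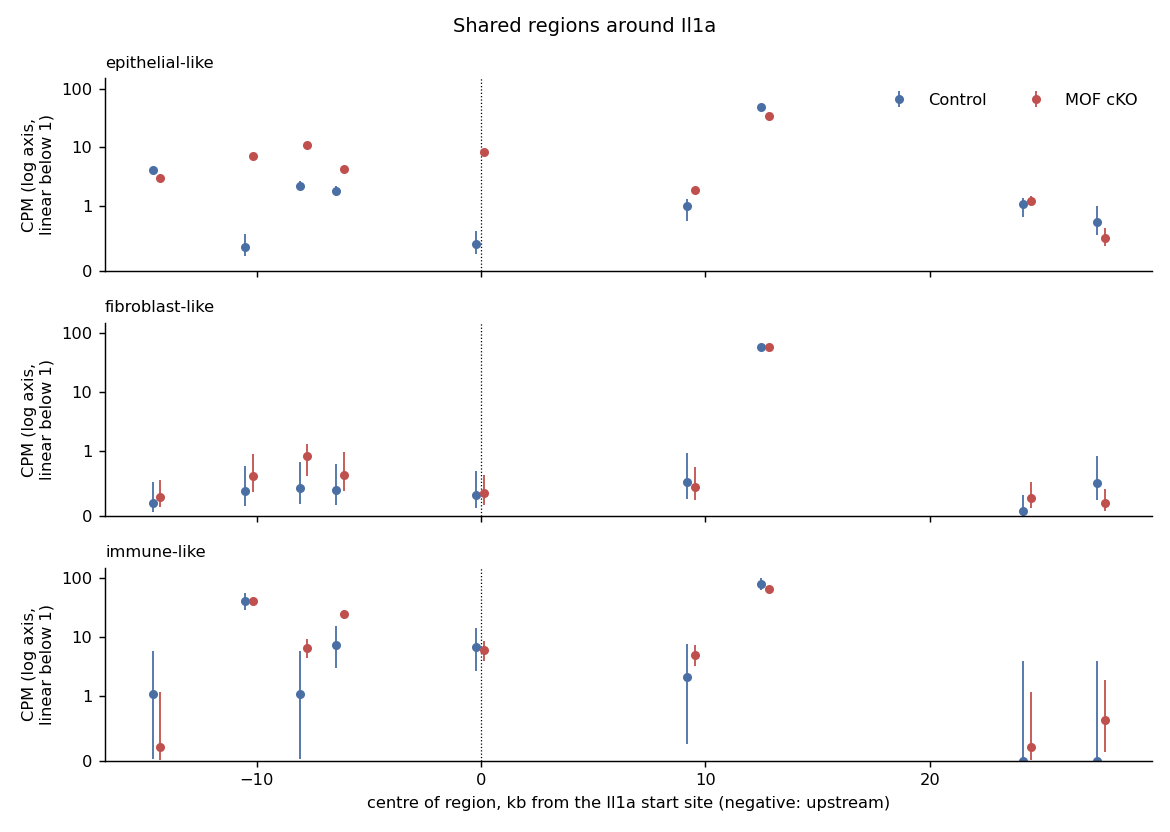
Shared regions around Il1a by the distance of their centre from its start site in kb, with CPM on an axis logarithmic above 1, exact 95% counting intervals, and Control in blue and MOF cKO in red. In epithelial-like cells the promoter and the region 10.3 kb upstream went from below 1 CPM to 8.30 and 7.18 CPM, whereas in immune-like cells the latter was near 40 CPM in both libraries.

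Il1b (ENSMUSG00000027398.13, chr2:129364570-129371139, minus strand) is the closest relative of Il1a on the chromosome and encodes the ligand that caspase-1 releases. Its promoter, chr2:129370749-129371733, held 0.638 CPM in epithelial-like cells of Control and 0.609 in those of MOF cKO, a difference of -0.07 (-0.68 to 0.56), and no difference was detectable at this depth. Fibroblast-like cells held 0.353 and 0.290 CPM. In immune-like cells, in contrast, the promoter held 6 sites in 46 Control cells, 3.14 CPM (0.65 to 9.17), and 156 sites in 281 MOF cKO cells, 16.2 CPM (12.8 to 20.2). The change was 2.37 (0.77 to 4.67), but the immune-like cells of the 2 libraries were made up differently. At a finer clustering 24 Control and 242 MOF cKO cells fell in a cluster with Tyrobp and Spi1 among its leading genes, and 22 and 37 in one with Cd3d among them. In the former, the Il1b promoter held 5.09 CPM (1.05 to 14.9) in Control and 18.7 (14.7 to 23.3) in MOF cKO, and in the latter 0 sites in both. The intervals of the former meet only at their ends, which does not show that the libraries were alike. No interval of the change was computed within the finer clusters. The region 2.3 kb upstream of Il1b, chr2:129373020-129373929, was open in immune-like cells of both libraries, at 51.2 and 53.3 CPM, and near the floor in epithelial-like cells, at 0.509 and 0.686 CPM. Other regions around Il1b were higher in epithelial-like cells of MOF cKO, among them the one 10.8 kb downstream of the start at 1.45 and 6.94 CPM (2.26) and the one over a coding exon at 1.36 and 5.49 CPM (2.01).

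Because Il1a and several regions were also open in immune-like cells, immune markers were measured in the epithelial-like class. The 9 immune markers with a promoter value summed in epithelial-like cells to 19.4 CPM in Control and 31.7 in MOF cKO, beside 426 and 414 CPM in immune-like cells, and none was at 0. Laptm5 (3.35 to 9.72 CPM), Csf1r (1.44 to 7.02 CPM) and Cd52 (1.37 to 2.24 CPM) were higher in MOF cKO, whereas Ptprc stood at 0.285 and 0.304 CPM, Cd53 at 0.216 and 0.256, and Spi1 at 1.72 and 1.63. The 5 macrophage markers went from 18.4 to 33.6 CPM, of which Cd68 made up 15.2 and 24.9. This list also holds Csf1r, already given among the immune markers. The others, Adgre1 (0.673 and 0.739 CPM), C1qa (0.543 and 0.454 CPM) and Mrc1 (0.578 and 0.420 CPM), held similar or lower levels in MOF cKO. Single markers of other lists were higher there too, such as the endothelial Cdh5 (0.405 to 4.31 CPM), the muscle gene Chrna1 (0.319 to 4.52 CPM), Itgax of dendritic cells (0.345 to 1.71 CPM) and Mpo of neutrophils (2.24 to 6.79 CPM). The lists as a whole summed to 43.1 and 45.7 CPM for endothelial, 8.22 and 12.2 for muscle, 14.2 and 14.1 for dendritic and 10.6 and 22.1 for neutrophil markers. The other muscle and dendritic markers held similar or lower levels, such as Actc1 (0.595 and 0.367 CPM), Des (3.33 and 3.37 CPM) and Flt3 (2.65 and 2.61 CPM). The Il1b region at 2.3 kb, above 50 CPM in immune-like cells, stayed below 1 CPM in epithelial-like cells of both libraries. At the finer clustering, an epithelial-like cluster of 0 Control and 126 MOF cKO cells had 7 of 10 epithelial markers and also 4 immune markers at least 2-fold above other cells. Its depth was 0.337 times the median of its library. The part of immune cells in the member values was not tested further.

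Il18 (ENSMUSG00000039217.13, chr9:50554827-50581840, plus strand), the other ligand cut by caspase-1, has a promoter region that it shares with Bco2, so both genes cannot be told apart there. That region, chr9:50554485-50555363, held 2.77 and 3.001 CPM in epithelial-like cells (0.12, interval -0.16 to 0.40), 4.24 and 5.66 CPM in fibroblast-like cells (0.42, interval 0.03 to 0.81) and 24.6 and 26.7 CPM in immune-like cells. The Il18 promoter level was thus highest in immune-like cells, and the epithelial-like difference from 0 was within counting error, with -0.03 to 0.67 over the alternative settings. Relative to the median of all promoters in epithelial-like cells, the change was 0.53. Its intron region chr9:50569901-50570838 nevertheless went from 0.586 to 8.79 CPM in epithelial-like cells (3.91), and the region 17.3 kb upstream from 5.71 to 15.4 CPM (1.44). All upstream regions of Il18, 5 of the 7 past 2-fold among them, also overlap the gene Bco2. In immune-like cells that intron region held 1.05 CPM in Control, from 2 sites, and 22.2 in MOF cKO. Within the finer cluster of 24 and 242 cells it held 1.70 (0.04 to 9.45) and 23.0 CPM (18.6 to 28.0). Of the 10 shared regions of Il18, only the promoter and the regions 6.8 kb upstream and 38.7 kb after the start moved by less than 2-fold in epithelial-like cells, and none was lower in MOF cKO.

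Il33 (ENSMUSG00000024810.16, chr19:29925114-29960718, plus strand), the nuclear alarmin, has 3 shared promoter regions that summed in epithelial-like cells to 22.0 CPM in Control and 24.2 in MOF cKO. The difference of 0.14 (0.04 to 0.24) was -0.01 when scaled to all peaks of each library. Relative to the median of all promoters in epithelial-like cells the difference was 0.55, and that median also moved, to -0.56, with this scaling. Fibroblast-like cells held 6.86 and 8.41 CPM and immune-like cells 3.66 and 2.59 CPM, so epithelial-like cells had the highest level of these 3 classes. Its promoter regions did not move together. That of the first start held 14.8 and 13.6 CPM in epithelial-like cells, and the innermost one, chr19:29951199-29952106, 1.68 and 3.88 CPM (1.20). The region 7.49 kb upstream, whose sequence is shown above, went from 0.492 (0.33 to 0.71) to 8.22 CPM (7.67 to 8.79) in epithelial-like cells (4.06, with 3.43 to 4.22 over the alternative settings). In fibroblast-like cells it went from 0.934 to 4.37 CPM (2.23). Further regions rose within the gene and before it, such as the one 13.0 kb upstream from 1.77 to 14.4 CPM (3.03) and the intron region 17.5 kb after the start from 0.552 to 7.09 CPM (3.68).

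Il1rn (ENSMUSG00000026981.15, chr2:24336853-24351494, plus strand) encodes the interleukin-1 receptor antagonist. Its shared promoter region chr2:24336330-24337231 held in epithelial-like cells 699 sites, 6.03 CPM (5.41 to 6.69), in Control and 3916 sites, 18.9 CPM (18.1 to 19.8), in MOF cKO. The change was 1.65 (1.49 to 1.82), 3.14-fold and the 157th highest of all promoters. A site was found in 17.1% of epithelial-like cells in Control and 46.0% in MOF cKO, and after thinning in 2.39% and 8.50%. The 3 epithelial-like clusters that were mostly Control held 3.68 to 7.65 CPM and the 5 that were mostly MOF cKO 11.8 to 21.3 CPM. In fibroblast-like cells 12 and 28 sites were counted, 0.303 and 0.451 CPM, and in immune-like cells 0 and 19 sites, so among the classes with more than 50 cells in MOF cKO the level was highest in epithelial-like cells. An intron region of Il1rn, chr2:24341124-24342212, went from 3.09 to 16.46 CPM in epithelial-like cells (2.41), and held 0.303 and 1.53 CPM in fibroblast-like and 9.93 and 31.4 CPM in immune-like cells.

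Of the receptor chains, Il1r1, Il1r2 and Il1rap had promoters open in several classes, and Il1rl1 had a weak one. Il1r1 (ENSMUSG00000026072.12, chr1:40225080-40317257), the signalling receptor, held in epithelial-like cells 28.0 CPM (26.7 to 29.4) in Control and 32.0 CPM (30.9 to 33.1) in MOF cKO. It held 40.2 and 47.7 CPM in fibroblast-like cells, 68.5 and 64.5 in mural-like cells, 10.98 and 21.2 in immune-like cells, and 31.4 and 66.5 in endothelial-like cells. In MOF cKO the mural-like and endothelial-like levels did not differ beyond their intervals, and fibroblast-like cells came next, with an interval that still touched the endothelial-like one. The change was 0.19 (0.11 to 0.28) in epithelial-like and 0.25 (0.12 to 0.37) in fibroblast-like cells, and the latter was -0.03 when expressed per cell. Relative to the median of all promoters in each class, these changes were 0.61 and 0.28. The fibroblast-like median was itself -0.31 when expressed per cell. Its start sites differed in epithelial-like cells: the upstream one at chr1:40224453-40225441 went from 8.38 to 15.3 CPM (0.87) and the one 41.6 kb further in from 19.6 to 16.7 CPM (-0.23). In fibroblast-like cells the upstream start held 23.7 and 29.8 CPM (0.33) and the inner one 16.45 and 17.9 CPM (0.12). All 27 shared regions of Il1r1 were higher in fibroblast-like cells of MOF cKO, the least by 0.12, beside 51.7% of all shared regions. An example is the intron region chr1:40233149-40234084 with 10.8 and 22.5 CPM (1.06). The fibroblast-like cells of the libraries fell largely in different clusters, as given below, and the part of this in these changes was not tested.

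Il1r2 (ENSMUSG00000026073.13, chr1:40074079-40125231), the decoy receptor, was lower in MOF cKO epithelial-like and fibroblast-like cells, with 22.5 CPM (21.2 to 23.7) and 14.1 CPM (13.4 to 14.8) over its 3 promoter regions in epithelial-like cells, a change of -0.67 (-0.78 to -0.57), or -0.26 relative to the median of all promoters. Fibroblast-like cells held 12.1 and 9.46 CPM (-0.36, interval -0.61 to -0.10) and immune-like cells 31.4 and 21.04 CPM (-0.58, interval -1.18 to 0.06), within counting error. The finer immune-like clusters went opposite ways, with 16.1 and 20.2 CPM in the one of 24 and 242 cells and 55.9 and 26.4 CPM in the one of 22 and 37 cells. The level intervals of the libraries overlap in both, and no interval of the change was computed within them. All 3 promoter regions were lower in epithelial-like cells, and 2 of them were at most 1/2, the lowest at -1.43, although their sum was not. In addition, 2 introns of Il1r2 were among the 3 member regions outside promoters that were at most 1/2. These are chr1:40094250-40095275, from 1.89 to 0.826 CPM (-1.19), and chr1:40101038-40101973, from 1.05 to 0.493 CPM (-1.09). Both were more open in fibroblast-like cells, at 19.6 and 22.8 CPM and at 8.68 and 10.6 CPM. The third lies over a coding exon of Il1rap, chr16:26713710-26714718, with 0.655 and 0.266 CPM (-1.30). Epithelial-like clusters 11 and 14 had 2.63 and 2.32 times the median depth of their library and median doublet scores of 0.88 and 0.92, and cluster 15 had 0.276 times that depth and a score of 0.12, beside scores of 0.26 to 0.38 in the other epithelial-like clusters. Without these 3 clusters, 0 member regions outside promoters were at most 1/2, and the region centred 20.7 kb after the Il1r2 start and the exon region of Il1rap stood at -0.54 and -0.11.

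Il1rl1 (ENSMUSG00000026069.15, chr1:40429570-40465415), the interleukin-33 receptor, has 2 shared promoter regions. In fibroblast-like cells they held 152 sites, 3.84 CPM (3.02 to 4.801), in Control and 758 sites, 12.2 CPM (11.01 to 13.5), in MOF cKO. The intervals do not overlap and the change was 1.67 (1.31 to 2.05), 3.18-fold and the 101st highest of the 15751 promoters compared in that class. Fibroblast-like cluster 5, with 77 Control and 471 MOF cKO cells, held 21.3 CPM and the other 3 fibroblast-like clusters 3.39 to 4.41 CPM. Il1rl1 is among the 10 leading genes of cluster 5, ranked against clusters outside the fibroblast-like class. The clusters were formed from accessibility itself, so this order is a description. Within cluster 5 the level was 9.66 CPM in Control and 23.3 in MOF cKO, within cluster 6 (237 and 240 cells) 3.72 and 5.17, and within cluster 8 (342 and 77 cells) 2.84 and 6.33. The level intervals of the libraries overlap within clusters 6 and 8 but not within cluster 5. Such an overlap does not show that the libraries were alike, and no interval of the change was computed within clusters. In epithelial-like cells the promoter held 0.992 and 2.07 CPM (1.06, interval 0.64 to 1.51), with changes over the alternatives from 0.92 with own-peak totals to 2.34 after thinning, and 2.004 without clusters 11, 14 and 15. In immune-like cells it held 13 and 23 sites, 6.80 and 2.38 CPM (-1.51, interval -3.02 to 0.14), which do not differ beyond counting error. At the finer clustering the 13 Control sites lay in the cluster with Cd3d, at 17.7 CPM (6.83 to 37.5) in 22 Control cells. The cluster of 24 and 242 cells held 0 sites in Control and 10 in MOF cKO, 1.20 CPM. An intron region of Il1rl1, chr1:40444507-40445426, rose in epithelial-like cells from 0.862 to 9.29 CPM (3.43) and in fibroblast-like cells from 3.08 to 12.3 CPM (1.995).

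Il1rap (ENSMUSG00000022514.14, chr16:26581704-26730117), the chain that both receptors share, had the promoter region chr16:26581289-26582134 open in every class. It held 33.3 and 24.8 CPM in epithelial-like, 41.3 and 37.8 in fibroblast-like, 47.0 and 45.5 in immune-like and 68.7 and 65.7 CPM in muscle-like cells. The epithelial-like change of -0.42 (-0.51 to -0.34) lies at the median of all promoters. Its introns behaved differently from its promoter: chr16:26625805-26626736, 44.6 kb into the gene, went from 65 sites, 0.561 CPM (0.38 to 0.79), to 2285 sites, 11.04 CPM (10.4 to 11.7), which is 4.30 on the log2 scale (3.80 to 4.85), with 3.96 to 6.20 over the alternative settings, the highest after thinning. The intron region chr16:26645700-26646666 went from 0.914 to 12.3 CPM (3.75). In fibroblast-like cells the former held 0.782 and 4.38 CPM (2.49) and the latter 0.353 and 0.612 CPM. In immune-like cells the former held 14.6 CPM in Control and 30.7 in MOF cKO (1.07, interval 0.28 to 1.97). The Control interval there overlaps that of MOF cKO epithelial-like cells, and the MOF cKO level lies above epithelial-like cells of either library. Within the finer immune-like cluster of 24 and 242 cells it held 23.7 and 35.2 CPM, with overlapping level intervals.

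Over the 126 shared regions of the 9 genes, the median change was 0.51 in epithelial-like cells, beside -0.15 over all shared regions, and over the 114 with a value it was 0.65 in fibroblast-like cells, beside 0.02. Leaving out promoters, also those of Ckap2l, Psd4, Il1rl2 and Il18r1 that lie within reach, 106 regions remained. In epithelial-like cells 37 of the 106 (34.9%) were at least 2-fold higher and 3 (2.83%) at most 1/2, beside 18.0% and 13.4% of all regions outside promoters, a contrast the choice of the set used. Without the regions of Il1a the count was 34 of 99. By role, 19 of 38 ligand regions, 2 of 6 of Il1rn and 16 of 62 receptor regions were at least 2-fold higher. In fibroblast-like cells, 36 of 94 (38.3%) were at least 2-fold higher and 3 (3.19%) at most 1/2, beside 11.8% and 7.73% of all such regions. These counts were 23 and 1 with presence or absence per cell, and 15 and 0 with cells thinned to 5000 sites, which leaves fewer regions to compare. The share of all regions was not computed under these settings, so these counts cannot be read as a weaker or stronger result. Of the receptor regions 24 of 57 were at least 2-fold higher, 14 of them around Il1r1, and of the ligand regions 11 of 34. The fibroblast-like cells of the 2 libraries fell largely in different clusters, cluster 7 with 3 Control and 464 MOF cKO cells, cluster 8 with 342 and 77 and cluster 5 with 77 and 471. Within cluster 6, with 237 and 240 cells, 8 of 50 member regions were at least 2-fold higher beside 7.72% of all regions. Within cluster 5 the count was 34 of 74 beside 25.5%, and within cluster 8 it was 9 of 47 beside 11.5%. The median change of member regions, 0.73 over the whole class, was 0.19 within cluster 6, 0.96 within cluster 5 and 0.09 within cluster 8, beside medians over all regions outside promoters of 0.04, -0.07, 0.20 and -0.03 in the same order. The part of cluster makeup in the class-wide count was not tested further. Member regions were less open than the typical region in fibroblast-like Control cells, with a median of 0.669 CPM beside 1.29, and the part of this level in the count was not tested. Peak calls themselves did not set the genes apart: 71 of the 215 regions (33.0%) had a peak in MOF cKO only and 18 (8.37%) in Control only, beside 33.2% and 8.92% of all regions.

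**Figure D4:**
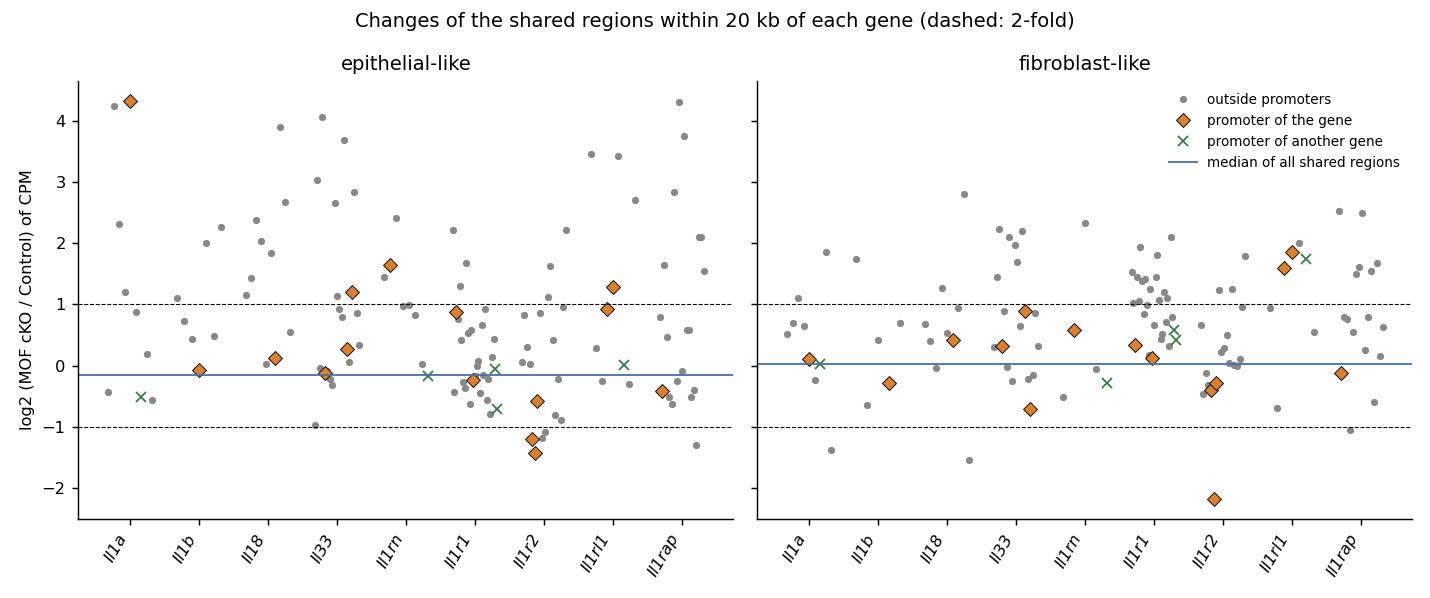
log2(MOF cKO / Control) of CPM for every shared region of the 9 genes with at least 20 sites, in order along each gene, in epithelial-like and fibroblast-like cells. Diamonds are promoters of the gene, crosses promoters of another gene and grey points other regions, the blue line is the median of all shared regions and dashed lines mark 2-fold; grey points above 2-fold are seen around each gene in epithelial-like cells, while of the promoters of Il1b, Il18 and Il1rap none passes it.

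The genes that work with the family were followed through 5 lists of 60 genes, of which 48 had a promoter value. In epithelial-like cells 8 of them were at least 2-fold higher and 1 at most 1/2, beside 2.23% and 2.48% of all promoters, and in fibroblast-like cells the counts were 8 and 1 again, beside 1.88% and 0.819%. The lists were chosen with earlier results of these data known, so nothing is read from these counts. The median over the lists was -0.20 in epithelial-like cells, beside -0.42 for all promoters, and 0.15 in fibroblast-like cells, beside -0.03.

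Among the processing genes, Casp1, the protease that cuts Il1b and Il18, held 2.10 and 9.56 CPM in epithelial-like cells (2.19, interval 1.92 to 2.47) and 0.883 and 2.43 CPM in fibroblast-like cells (1.46). Casp4, which senses bacterial lipopolysaccharide inside the cell, held 1.75 and 6.60 CPM in epithelial-like cells (1.92) and 2.12 and 14.3 CPM in fibroblast-like cells (2.75). The inflammasome sensor Nlrp3 held 0.466 and 1.08 CPM in epithelial-like cells (1.22, interval 0.60 to 1.88), with 0.82 to 3.48 over the alternative settings. Pycard, the adaptor that joins such sensors to caspase-1, was the only list gene at most 1/2 there, with 18.3 and 6.79 CPM (-1.43, interval -1.57 to -1.29), while it stood at 6.16 and 5.96 CPM in fibroblast-like cells. In immune-like cells Casp1 held 15.2 and 22.6 CPM, Casp4 13.1 and 21.8, Nlrp3 32.4 and 27.3 and Pycard 8.36 and 9.95. The part of immune cells in the epithelial-like values was not tested.

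None of the 21 signalling genes, from Myd88 to Tnfaip3, passed 2-fold in either class. In epithelial-like cells 19 of the 21 were lower and their median was -0.41, close to the median of all promoters. Tab2 (0.26) and Ikbkb (0.16) were the 2 that were higher, with Myd88 at 93.8 and 67.5 CPM and Rela at 36.5 and 28.2 CPM. In fibroblast-like cells 11 were higher and 10 lower. Of the other ligands, Il1f9 (Il36g), an interleukin-36 of keratinocytes, held 1.53 and 5.22 CPM in epithelial-like cells (1.77, interval 1.44 to 2.11) and Il1f10 9.40 and 8.15 CPM. Of the 5 other receptors with a value, 0 passed 2-fold in epithelial-like cells, and Il18r1 did in fibroblast-like cells at 0.202 and 0.677 CPM (1.74, interval 0.18 to 3.75).

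The list of genes known to be induced by interleukin-1 was chosen with earlier results of these data known, so its counts are a description. Among its 11 genes with a value, 4 were at least 2-fold higher in epithelial-like cells, beside 2.23% of all promoters. These are the matrix protease Mmp3 (2.99 and 13.9 CPM, 2.22), the chemokines Ccl2 (2.38 and 9.41 CPM, 1.98, and 3.37 without clusters 11, 14 and 15) and Ccl20 (4.54 and 11.4 CPM, 1.33), and the alarmin S100a9 (5.48 and 11.6 CPM, 1.08, but 0.65 after thinning). In fibroblast-like cells 5 were, beside 1.88% of all promoters, the chemokines Cxcl1 (20.2 and 44.05 CPM, 1.12), Cxcl2 (7.12 and 20.6 CPM, 1.53), Cxcl5 (4.29 and 12.0 CPM, 1.48) and Ccl20 (0.252 and 1.24 CPM, 2.30) together with Mmp3 (0.681 and 2.63 CPM, 1.95). Epithelial markers went both ways in the same fibroblast-like cells. Krt14 (0.883 and 3.77 CPM) and Esrp1 (2.50 and 4.51 CPM) were higher, and Trp63 (5.93 and 3.06 CPM) and Epcam (4.87 and 3.09 CPM) were lower. The cytokine gene Il6 held 13.7 and 22.9 CPM in epithelial-like cells (0.74) and 37.0 and 50.5 CPM in fibroblast-like cells, under 2-fold in both. Genes named for fibroblast-like cells, and the genes at less than 2-fold, were picked after their values were seen.

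**Figure D5:**
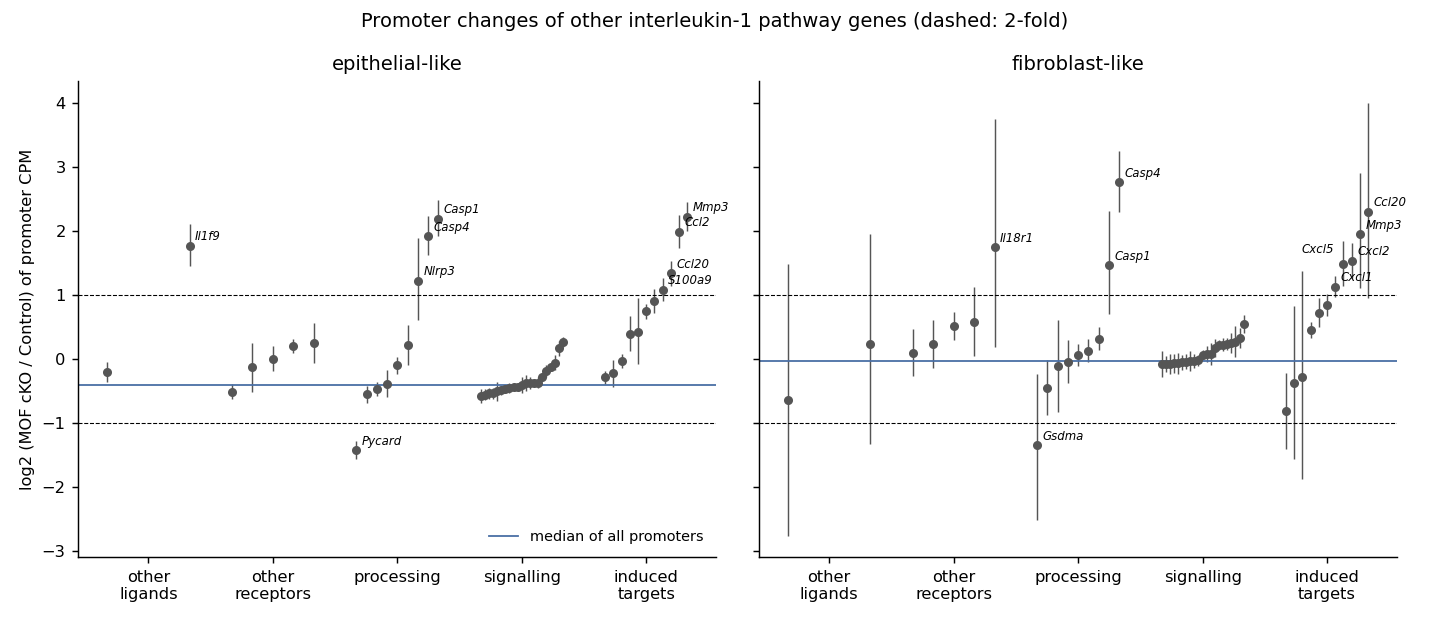
log2(MOF cKO / Control) of promoter CPM for the genes of 5 lists in epithelial-like and fibroblast-like cells, with exact 95% counting intervals, names for genes past 2-fold (dashed) and the median of all promoters in blue. The median of the 21 signalling genes lies near that of all promoters in epithelial-like cells, with Tab2 and Ikbkb above 0, whereas Casp1, Casp4 and Mmp3 lie above 1 in both classes.

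The promoters most like that of Il1a in their levels over the 10 groups of class and genotype with at least 20 cells were Gstp3 (r = 0.856), Ctla2a and Gm49391 (both 0.853, from the same region), Tnfrsf8 (0.848) and Prss30 (0.843). These are Pearson correlations of log2(CPM + 1) among 14600 genes, and the groups share libraries. The groups include the epithelial-like cells of both libraries, whose Il1a values chose the set. A rise of the named genes in these cells was thus favoured by the way they were picked, and the levels are a description. In epithelial-like cells Prss30 held 3.57 and 17.3 CPM, Ctla2a 0.448 and 3.96, Gstp3 2.52 and 5.17, and Tnfrsf8 1.16 and 2.11 CPM.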

How the data were processed

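Single-cell ATAC-seq counts from 1 Control and 1 MOF cKO library were used. The deposited count matrices hold raw cut-site counts per peak and cell barcode, made by the authors with cellranger-atac 2.0.0 on mm10 (GRCm38), with no normalization; peaks and cells were called in each library separately. Of the values, 88.8% and 91.6% were even, so intervals were computed on fragments (sites divided by 2). Both peak lists were merged, and regions with a peak from each library were kept. Promoters were shared regions within 500 bp of a protein-coding start in GENCODE M21 (18975 regions), summed per gene. Barcodes with at least 1000 sites were clustered (TF-IDF, singular vectors, Leiden resolution 1, leidenalg 0.10.2) and named from fixed markers where 3 or more stood at least 2-fold above other cells. A shallow cluster with no own marker among its 10 leading genes was left unnamed. Changes are log2 ratios of CPM for features with at least 20 sites; "at least 2-fold" is a size and not a test. A side with 0 sites was set to 1 site. The calculation was tested on simulated data. Intervals are exact Poisson for levels, conditional binomial for changes and Clopper-Pearson for shares, and cover counting error only. Thinning drew 5000 sites per cell. The members, lists and alternatives were chosen with earlier results of these data known. Genes named outside the members are list genes past 2-fold in epithelial-like cells and the 5 promoters with at least 500 sites most correlated with Il1a; other list and marker genes named were picked after their values were seen; regions named by rule are the 3 that rose and the 3 that fell most. Of the list symbols, 59 of 60 were found, Il36g as Il1f9 through a RefSeq synonym. Sequences and promoter entries are from RefSeq, GRCm38.p6, and were searched in Python 3.11.15 with pysam 0.24.0.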

Additional observations from a re-analysis of the deposited data

Results flagged for a closer look

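Changes in the epithelial-like and the fibroblast-like class had opposite signs, with each counting interval on its own side of 0, at 8 of 114 member regions and 12 of 48 list promoters, and 7 and 11 of these were lower in the epithelial-like class, where the typical promoter is lower too. The share of all shared regions and of all promoters with opposite signs was not computed, so nothing is read from these counts. Given here are the list promoters that passed 2-fold in a class and the regions named by rule, 4 in all. The Cxcl1 promoter change in epithelial-like cells was -0.29 and in the fibroblast-like class 1.12, and that of Cxcl5 -0.23 and 1.48. The Il1r2 intron regions 20.7 kb and 27.4 kb after the start changed by -1.19 and 0.22 and by -1.09 and 0.29. Beside the median of all promoters in epithelial-like cells (-0.42), the Cxcl1 and Cxcl5 promoters were not lower than the typical promoter. The difference between classes was not tested, since each class comes from the same 1 library per genotype.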

How the results depend on the processing

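No paired analysis was possible because each genotype has 1 library. Of 143 recomputed summary values, 129 stayed within 1.5 times a count or within the interval of a value, 14 moved and 0 reversed. The Il1a promoter change stayed between 4.12 and 4.48, and the count of member promoters at least 2-fold higher between 2 and 3, Il1rl1 falling to 0.92 when scaled to all own peaks and to 0.98 per cell. The number of member regions at least 2-fold higher in epithelial-like cells, 37 at first, ran from 27 to 57 over the alternatives, the highest with a flank of 50 kb (more regions). In fibroblast-like cells the number was 23 with presence or absence per cell and 15 with cells thinned to 5000 sites (fewer regions with 20 sites). The share of all regions was not computed under these settings. The median change of member regions in fibroblast-like cells was 0.37 per cell and 0.48 with presence or absence. Regions at most 1/2 in epithelial-like cells, 3 at first, numbered 5 with own-peak totals, 0 with presence or absence, 1 without the 5% of cells with the highest doublet score, 8 with 50 kb and 0 without clusters 11, 14 and 15 (added after seeing the data); in fibroblast-like cells, 3 at first, they numbered 1 with presence or absence, 0 after thinning, 1 with at least 50 sites and 1 with 10 kb. Apart from the flank and thinning, the cause was not tested. Counting cluster 10 as epithelial-like, also added later, moved no summary value. Own-peak totals moved the median of all promoters in epithelial-like cells from -0.42 to -0.56, and median-of-ratios size factors to -0.26. Over all alternatives the epithelial-like differences ran from -0.01 to 0.29 for Il33 and from -0.03 to 0.67 for Il18. The values within immune-like and fibroblast-like clusters were also added after seeing the data. With 1 library per genotype, variation between embryos cannot be separated from genotype.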

Other observations

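In the unnamed cluster led by Gjc3 and Car6, with 30 Control and 55 MOF cKO cells, the Il18 promoter held 11.3 CPM in Control and 20.2 in MOF cKO, above its level in epithelial-like and fibroblast-like cells, and the Il1a promoter held 0 sites in both.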
